A study of Mus musculus with 10 samples.

Results

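The regions described here are the RNA polymerase III (Pol III) loci of mouse embryonic stem (ES) cells, set against RNA polymerase II (Pol II) peaks mapped in the same cells. Autosomal peaks for the Pol III subunits POLR3C (311 peaks) and POLR3GL (231 peaks) were joined wherever they shared at least 1 bp, which gave 328 loci. The POLR3C and POLR3GL lists of both cell types in the series make 380 loci when joined in this way over all chromosomes. A further 12 loci on chromosome X and 5 on chromosome Y lie outside the rule, which takes autosomes only. Of the 328 loci, 214 held a peak of both subunits, 97 held POLR3C alone and 17 held POLR3GL alone. Each locus was given its distance to the nearest of 31667 autosomal Pol II peaks of ES cells and placed in 1 of 5 bins, namely overlapping (0 bp), 1 to 500, 500 to 2000, 2000 to 10000 and over 10000 bp, where each bin includes its upper bound and begins 1 bp above the bound before it.

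The measurements are chromatin immunoprecipitation followed by sequencing (ChIP-seq) from ES-E14TG2a cells, an established mouse ES cell line grown on gelatin with leukaemia inhibitory factor (LIF) and 10% serum. The POLR3C and POLR3GL antibodies were made in the submitters' laboratory, and Pol II was precipitated with N-20 (sc-889), an antibody against the amino terminus of the largest Pol II subunit. Primary mouse embryonic fibroblasts (MEFs), taken from E12.5 embryos and used after 3 to 5 passages in medium without LIF, served as a comparison for the same loci. Each antibody was used on 1 library per cell type, so no value below has a replicate check and no test between conditions was made.

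Pol III makes tRNAs, 5S rRNA and a handful of other short RNAs. At tRNA genes the promoter lies inside the transcribed part, where the factor TFIIIC binds and places TFIIIB just upstream, and TFIIIB in turn recruits Pol III, while genes such as those for U6 and 7SK carry their promoter upstream of the start. POLR3C belongs to a small subcomplex of Pol III needed for initiation, and POLR3GL is one of the alternative partners in that subcomplex, the other being POLR3G. Pol II transcribes protein-coding genes and is also known from human cells to be found close to many active Pol III genes, which is the question that the distances address. No annotation of the files' genome build (mm9) was at hand, so that loci are named by position, genes and strands are not assigned, and the cell type could not be checked against marker genes.

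Pol III loci were 142 to 344 bp wide (median 214 bp), since the peaks have 1 fixed width per list, and the autosomal Pol II peaks were wider, with a median of 958 bp. Scores are those of the authors' peak lists, without a stated scale, and served only to rank peaks within a list, with the percentile running from 0 (lowest) to 100 (highest). How many reads lie behind each list is not known. Intervals in parentheses are 95% intervals, exact Clopper-Pearson for shares and from order statistics for medians. They cover counting error over loci only. Loci are not replicates, and neighbours can share a Pol II peak.

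Most loci lay either in direct overlap with Pol II or far from it. A Pol II peak overlapped 110 of the 328 loci (33.5%, 28.4 to 38.9%) and lay more than 10000 bp away from 106 (32.3%, 27.3 to 37.7%). Between these ends, 19 loci lay 1 to 500 bp from Pol II (5.79%, 3.52 to 8.90%), 19 lay 500 to 2000 bp away (5.79%, 3.52 to 8.90%) and 74 lay 2000 to 10000 bp away (22.6%, 18.2 to 27.5%). Loci within 500 bp thus numbered 129 (39.3%), and those within 2000 bp numbered 148 (45.1%). The median distance over all loci was 3318.5 bp (1911 to 5648 bp). The balance of the ends changed when 1 locus was kept per run of loci at most 200 kb apart (124 loci). With the locus of highest POLR3C score kept in each run, the overlap share was 56.5% and the share beyond 10000 bp 22.6%. This choice both thins clusters and favours high POLR3C scores, and these were not told apart.

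As a background, the bin was worked out for a locus of the median width at every position of each autosome, from the lowest to the highest coordinate of a peak in the lists used. Of these positions, 2.11% would overlap a Pol II peak, 0.976% would lie 1 to 500 bp away, 2.32% would lie 500 to 2000 bp away, 8.47% would lie 2000 to 10000 bp away and 86.1% would lie farther. The loci were therefore 15.9 times as frequent in the overlap bin as such positions and 0.375 times as frequent in the farthest bin. Positions within 50 kb of the loci themselves, a closer background, gave 9.49%, 4.19%, 10.1%, 29.7% and 46.5% for the 5 bins in the same order. Against these the overlap bin held 3.54 times as many loci and the 1 to 500 bp bin 1.38 times as many, with an interval for the latter (3.52 to 8.90%) that includes the local value. The bins of 500 to 2000, 2000 to 10000 and over 10000 bp held fewer loci than the positions around them, with ratios of 0.571, 0.76 and 0.695. Relative to the neighbourhood, the excess of loci over positions was thus found in the overlap bin.

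**Figure D1:**
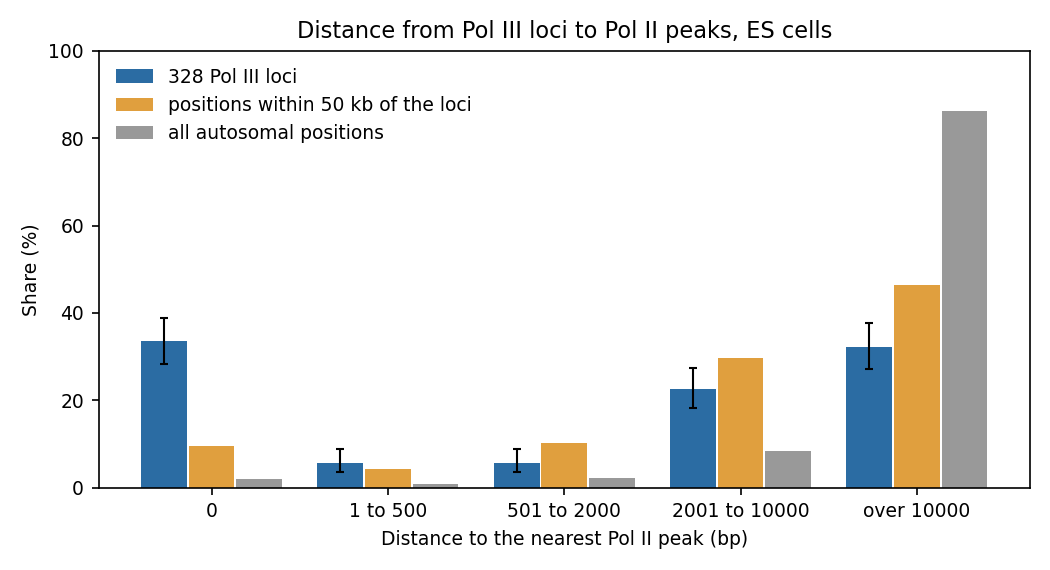
Share of the 328 Pol III loci in each bin of distance to the nearest Pol II peak of ES cells (blue, with 95% Clopper-Pearson intervals), beside the share of positions within 50 kb of the loci (orange) and of all autosomal positions (grey), in percent. Overlap holds 33.5% of the loci against 9.49% of the nearby and 2.11% of all positions.

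The same was seen without bins, from the share of positions that lie inside a Pol II peak at a given distance from the centre of a locus. At the centre itself the share was 30.2% of 328 loci. It was 22.7% at 500 bp to either side, 13.9% at 1000 bp and 7.93% at 2000 bp, and from there to 30000 bp it stayed between 6.71 and 9.91%, against 1.86% of all autosomal bases that lie in a Pol II peak. The neighbourhood was also dense in Pol II on a larger scale, with a mean of 5.78 Pol II peaks within 50000 bp of a locus (median 5, highest 20) against 1.34 for an arbitrary position, and 1.53 against 0.285 within 10000 bp. Among the 218 loci that did not overlap Pol II, 30 had a Pol II peak within 10000 bp on both sides, 82 on a single side and 106 on neither.

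**Figure D2:**
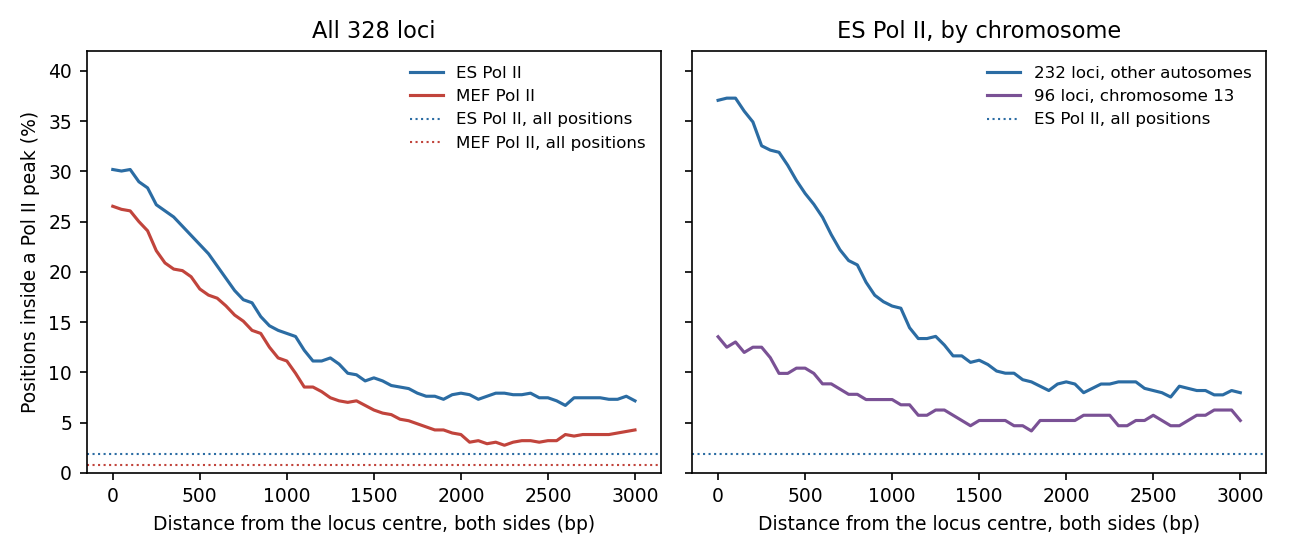
Share of positions inside a Pol II peak (percent) by distance from the centre of the Pol III locus in bp, both sides averaged, for all 328 loci with ES and MEF Pol II (left) and for ES Pol II at the 96 loci of chromosome 13 and the 232 of other autosomes (right), with dotted lines for all autosomal positions. The curves have their highest values at the centre or within 100 bp of it, at 30.2% for ES and 26.5% for MEF Pol II.

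Most overlapping loci lay wholly inside a Pol II peak, but not at a set place in it. Of the 110, 87 (79.1%) were contained and 23 were partly covered, by a median of 108 bp, and no locus touched more than 1 Pol II peak. Loci are much narrower than Pol II peaks, so that containment is frequent at any overlapping placement, and no background was worked out for it. The centres of locus and Pol II peak were a median of 303.5 bp apart (middle 50% of loci 161 to 474 bp, highest 1858.5 bp). Along the way from the centre of the Pol II peak to its edge, 4 equal steps from centre to edge held 26, 28, 27 and 29 loci, the last with those whose centre lay just beyond the edge. The overlapping Pol II peaks were of ordinary size, with 43 loci in peaks of 500 to 1000 bp, 45 in peaks of 1000 to 2000 bp, 18 in peaks of 2000 to 4000 bp and 3 in wider ones.

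The 110 overlapping loci shared 98 Pol II peaks. Of these peaks, 87 held 1 locus, 10 held 2 and 1 held 3. The peak with 3 loci, chr11:68849231-68851677 (2447 bp, score 1245.58, percentile 95.3), covered chr11:68850441-68850687 (POLR3C 1989, POLR3GL 34), chr11:68850904-68851162 (POLR3C 2106, POLR3GL 34) and chr11:68851367-68851508 (POLR3GL 29, without POLR3C). The widest Pol II peak over any locus, chr13:22111763-22116573 (4811 bp, score 623.55), held a pair, chr13:22112955-22113181 with a POLR3C score of 1599 and chr13:22114199-22114412 with 2600. A pair also lay in the peak chr5:31189473-31193290 (3818 bp), whose score of 2929.99 was the second highest over any locus. At the other extreme, the pair on chromosome 2 between 122202968 and 122203912 shared a Pol II peak of 654 bp with a score of 55.73 (percentile 7.61).

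The Pol II peaks over the loci ranked above the middle of their list in score and width. Their median score percentile was 66.9 (56.1 to 75.2) and their median width percentile 63.4 (54.5 to 71.8), that is a score of 201.44 and a width of 1171 bp. The spread was wide, from percentile 7.07 to 99.4 in score. In the bins farther out, the nearest Pol II peak was close to the middle of the list, with median score percentiles of 50.7 (26.9 to 70.7) at 1 to 500 bp, 52.3 (37.6 to 72.7) at 500 to 2000 bp, 49.8 (37.6 to 57.1) at 2000 to 10000 bp and 51.2 (42.9 to 61.7) beyond. Their median width percentiles were 44.5, 54.5, 35.7 and 44.2. Counting each Pol II peak once in a bin brought the scores closer together, with a median percentile of 61.4 (51.9 to 72.7) for the 98 overlapping peaks and 58.1 (42.9 to 72.5) for the 50 beyond 10000 bp. In the bins between, it was 48.3, 52.9 and 54.1. The farthest bin also came near the overlap bin without chromosome 13, at 62.7 against 69.0, and with Pol III peaks at or above the median score, at 63.9 against 65.5. The higher score rank at overlap than beyond 10000 bp is therefore not a firm difference.

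A wide peak is hit more often at any position, so ranks in the overlap bin need a background of their own. For a locus of the median width at every autosomal position that would overlap a Pol II peak, that peak had a median score percentile of 71.7 and a median width percentile of 75.3. The peaks over Pol III loci lay at or below these values, at 66.9 in score, with an interval that includes 71.7, and at 63.4 in width, with an interval (54.5 to 71.8) that does not reach 75.3. The median width was 1171 bp at the loci against 1509 bp over such positions. In the other bins the same background was 48.1, 49.1, 50.3 and 54.1 for the score, inside the interval of the loci in each of them. A rank above the middle of the list was thus also the rule for arbitrary positions that overlap Pol II.

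**Figure D3:**
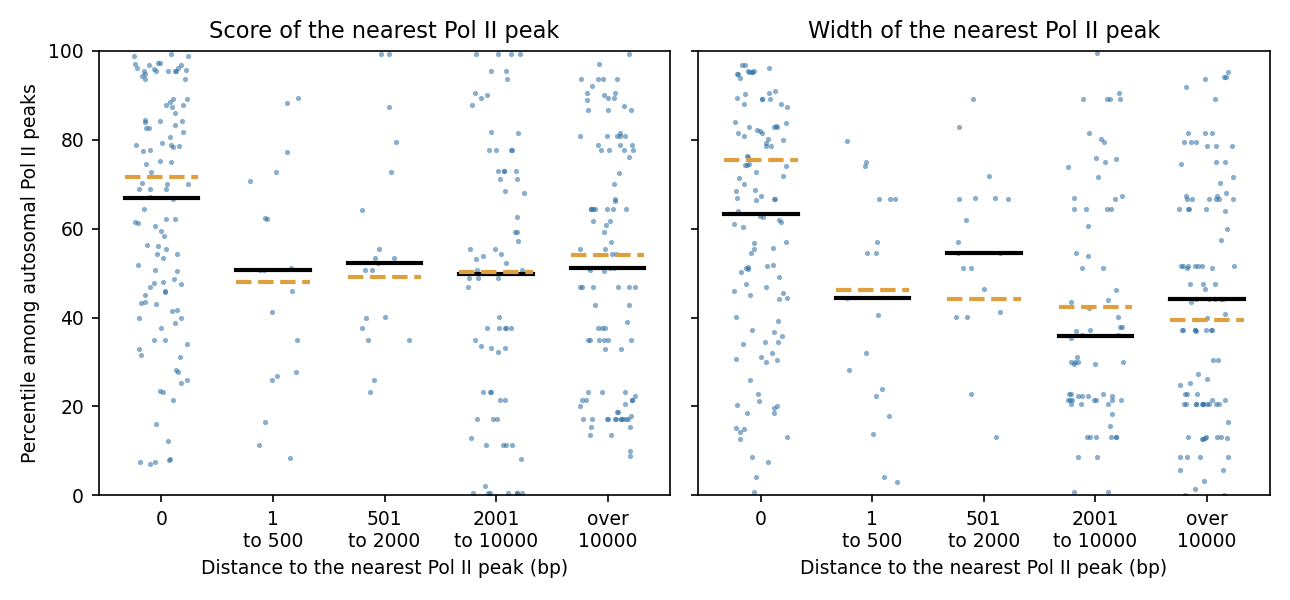
Percentile in score (left) and width (right) of the Pol II peak nearest to each locus (points) by distance bin, among 31667 autosomal Pol II peaks, with the median of the loci (black) and the median for all autosomal positions that fall in the bin (orange, dashed). In the overlap bin the black lines stand at 66.9 and 63.4 and the dashed lines at 71.7 and 75.3.

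Seen from the Pol II list, peaks with a locus were rare in each part of it. They made up 0.114% of the Pol II peaks in the lowest score quartile (9 of 7921), 0.341% in the next (27 of 7914), 0.328% in the third (26 of 7916) and 0.455% in the highest (36 of 7916). By width the shares ran from 0.189% of the narrowest quartile to 0.404% of the third and 0.367% of the widest, which begins at 1498 bp. The highest Pol II score over a locus was 3100, a value shared by 362 autosomal peaks, at chr13:23621931-23624572. This peak held chr13:23622140-23622399, with a POLR3C score of 2522 and a POLR3GL score of 36. The widest overlapping peaks after that of the chromosome 13 pair included chr2:27391924-27396268 (4345 bp, score 1806.92), over chr2:27395321-27395553 (POLR3C 2483, POLR3GL 35).

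The median Pol III scores of the loci were lowest beyond 10000 bp for both subunits, though for POLR3GL this depended on the peaks kept. Median POLR3C percentiles among 311 loci were 51.9 (40.7 to 66.9) at overlap, 63.2 (28.8 to 75.9), 60.5 (34.1 to 74.4) and 52.6 (43.1 to 64.1) in the next bins, and 42.6 (31.7 to 51.9) beyond 10000 bp. Median POLR3GL percentiles among 231 loci were 51.5 (46.3 to 64.3), 64.3, 64.3, 51.5 and 37.4 (30.3 to 46.3) in the same order. For both subunits the interval of the farthest bin meets or overlaps that of the overlap bin. When only Pol III peaks at or above the median score were kept and ranked anew, the POLR3GL order turned, with 58.8 beyond 10000 bp (24 loci) against 54.3 at overlap (44 loci). Without chromosome 13, the POLR3C median at 2000 to 10000 bp was low as well, at 41.5 against 57.6 at overlap. Across loci, which share libraries and neighbourhoods, the rank correlation between score and distance was weak, with Spearman's rho of -0.15 for POLR3C (311 loci) and -0.15 for POLR3GL (231 loci). Outside chromosome 13 they were -0.24 (218 loci) and -0.18 (146 loci). Within the overlap bin, the score of a locus and that of its Pol II peak showed no rank relation to speak of, with rho of -0.05 for POLR3C (106 loci) and 0.08 for POLR3GL (81 loci).

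By quartile of POLR3C score, the share of loci in a Pol II peak was 34.6% (24.2 to 46.2%) in the lowest, 30.8% and 28.6% in the middle ones and 42.3% (31.2 to 54.0%) in the highest. The share beyond 10000 bp was 39.7% (28.8 to 51.5%), 35.9%, 35.1% and 19.2% (11.2 to 29.7%), respectively. The first and the last of these intervals overlap. For POLR3GL the overlap shares were 31.0%, 34.5%, 35.1% and 39.7%, with intervals that overlap throughout. Beyond 10000 bp they were 39.7%, 31.0%, 17.5% and 24.1%, so that the highest POLR3GL quartile did not have the lowest share. Strong Pol III loci were found in each bin. The highest POLR3C score in the overlap bin, 3069, was that of chr11:106874127-106874340 (POLR3GL 49), whose Pol II peak scored only 99.76 (percentile 41.7). It was followed by chr8:113586353-113586603 (POLR3C 2965, POLR3GL 40), with a Pol II score of 83.45, and by chr3:90279743-90279956 (POLR3C 2886, POLR3GL 53), with a Pol II score of 418.42. All 3 were contained in their Pol II peak, 327 to 395.5 bp from its centre. The highest POLR3GL score over Pol II, 56, belonged to chr6:86353777-86353990 (POLR3C 2782), at the edge of a Pol II peak of 1718 bp. The next were chr3:90279743-90279956 and chr5:125886322-125886535 (POLR3GL 50, POLR3C 2834).

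**Figure D4:**
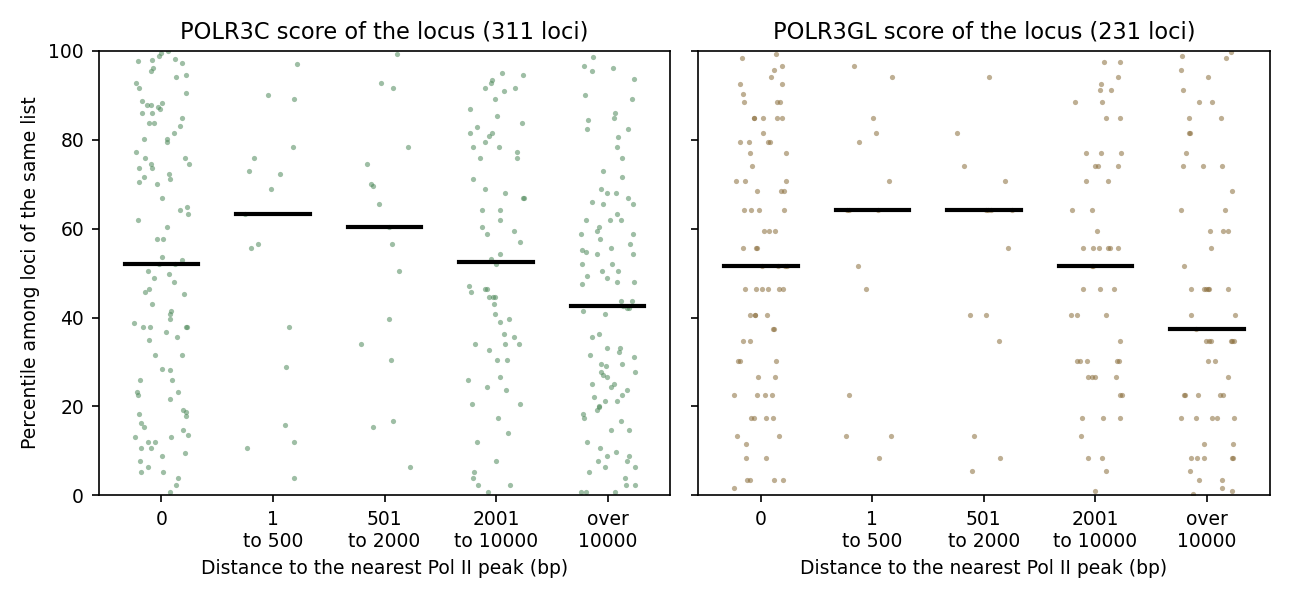
Percentile of the POLR3C score (left, 311 loci) and the POLR3GL score (right, 231 loci) of each locus (points) by distance to the nearest Pol II peak, with the median per bin (black). Points fill the whole range in each bin, and the lowest medians, 42.6 and 37.4, are those beyond 10000 bp.

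Among the 19 loci 1 to 500 bp from Pol II, distances ran from 9 to 479 bp with a median of 191 bp (91 to 415 bp). The locus at 9 bp, chr1:134930820-134930961 (POLR3GL 22, without POLR3C), is the nearest that fell outside the overlap bin. The strongest of this bin were chr3:96304828-96305084 (POLR3C 2756, POLR3GL 48, 428 bp away), chr11:68876523-68876736 (POLR3C 2405, POLR3GL 36, 256 bp) and chr13:23524831-23525052 (POLR3C 2392, POLR3GL 50, 55 bp). Their Pol II peaks scored 73.85, 109.99 and 58.73, all below the middle of the list. At the 500 bp edge, chr3:96301595-96301808 lay inside at 479 bp (POLR3C 2028) and chr13:23538580-23538844 outside at 566 bp (POLR3C 1794).

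The bin of 500 to 2000 bp held, as its strongest loci, chr14:51709099-51709312 (POLR3C 2939, POLR3GL 48, 1046 bp from Pol II), chr14:51684811-51685024 (POLR3C 2483, POLR3GL 40, 1127 bp) and chr3:96305294-96305554 (POLR3C 2457, POLR3GL 37, 894 bp). The last of these shares its nearest Pol II peak, chr3:96303384-96304400, with the strongest locus of the bin before. At the 2000 bp edge stood chr13:22063611-22063824 at 1969 bp (POLR3C 494) and chr13:22121864-22122077 at 2019 bp (POLR3C 793), neither with POLR3GL. In the bin of 2000 to 10000 bp the strongest were chr13:21802745-21802958 (POLR3C 2548, 3964 bp), chr13:23529865-23530078 (POLR3C 2535, 5089 bp) and chr11:68854668-68854881 (POLR3C 2496, 2991 bp), with POLR3GL scores of 43, 46 and 48. On either side of the 10000 bp edge were chr3:96232050-96232263 at 9973 bp (POLR3C 1144) and chr13:21999700-21999913 at 10084 bp (POLR3C 936, POLR3GL 24).

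Far from any Pol II peak, the strongest loci scored nearly as high as those in the overlap bin. They were chr11:48670029-48670242 (POLR3C 2873, POLR3GL 54, 14215 bp from Pol II), chr11:68938655-68938868 (POLR3C 2652, POLR3GL 48, 13988 bp) and chr13:21371530-21371745 (POLR3C 2600, POLR3GL 40, 54075 bp). The highest autosomal POLR3GL score, 60, was at chr13:23558912-23559138 (POLR3C 2509), 20898 bp away, and chr13:23492640-23492853 scored 53 at 24191 bp. The MEF lists for both subunits called each of these 5 loci as well.

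Loci differed in how many Pol III lists support them. In all, 61 loci were called by 1 of the 4 POLR3C and POLR3GL lists of ES cells and MEFs, 57 of them by ES POLR3C. By definition these 61 have no Pol III call in MEFs, while 266 of the other 267 loci do. The split is thus close to that by MEF call, and cannot tell a weak call from a site bound in ES cells only. Most of the 61 had low scores, with 52 of the 57 in the lowest POLR3C quartile (260 to 767). Of the 61, 17 overlapped Pol II (27.9%, 17.1 to 40.8%) and 29 lay over 10000 bp away (47.5%, 34.6 to 60.7%). The other 267 loci had shares of 34.8% (29.1 to 40.9%) and 28.8% (23.5 to 34.7%). Among them the median POLR3C percentile, still ranked among all 311 loci with POLR3C, was 64.1 at overlap and 54.2 beyond 10000 bp. Ranked anew among the kept loci, these medians were 56.5 and 44.3. For each share the intervals of single-list and other loci overlap, barely so beyond 10000 bp. The 29 far single-list loci are not spread evenly, since they include a pair on chromosome 2 and a run of 7 on chromosome 9, described below. The 17 single-list loci over Pol II scored 260 to 585 for POLR3C and sat in Pol II peaks of a median score percentile of 78.7 (54.3 to 84.3), against 62.3 (53.4 to 74.6) for the other 93. These intervals overlap, and the percentiles of the 17 ran from 7.07 to 96.9. Examples from the upper end are chr11:87859867-87860080 (POLR3C 377, Pol II 1644.16) and chr6:146590255-146590468 (POLR3C 377, Pol II 1313.68). These examples were chosen after their values were seen.

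The 3 loci farthest from Pol II were all of this single-list kind. They were chr2:98502805-98503018 (POLR3C 1183, 2965825 bp) and chr2:98506831-98507044 (POLR3C 1534, 2961799 bp), followed by chr9:3015618-3015831 (POLR3C 273, 318946 bp). The last is part of a run of 7 such loci between 3015618 and 3035954 on chromosome 9. None of these 9 loci had POLR3GL in ES cells or a Pol III peak in MEFs, while 7 of them overlapped a MEF Pol II peak. Whether they mark Pol III was not tested.

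By subunit, 77 of 214 loci with both subunits overlapped Pol II (36.0%, 29.6 to 42.8%), as did 29 of 97 with POLR3C alone (29.9%, 21.0 to 40.0%) and 4 of 17 with POLR3GL alone (23.5%, 6.81 to 49.9%). Beyond 10000 bp lay 28.0% (22.1 to 34.6%), 42.3% (32.3 to 52.7%) and 29.4% (10.3 to 56.0%). These intervals overlap. The 40 POLR3C loci without POLR3GL in ES cells that had a Pol III call in MEFs overlapped Pol II in 12 cases (30%) and lay over 10000 bp away in 14 (35%).

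Solitary and clustered loci differed widely in overlap. When loci at most 200 kb apart were joined, the 328 loci formed 124 runs. Of the 90 solitary loci, 51 overlapped Pol II (56.7%, 45.8 to 67.1%). The share was 36.8% (27.2 to 47.4%) of 95 loci in runs of 2 to 7, 20.8% (10.5 to 35.0%) of 48 in clusters of 8 or more outside chromosome 13, and 14.7% (8.30 to 23.5%) of 95 in the 3 clusters of chromosome 13. Pol II density around the loci did not follow this order, since 9.92%, 9.83%, 7.63% and 9.66% of positions within 50 kb overlapped Pol II in these groups. The ratio of loci to nearby positions was accordingly 5.71 for solitary loci and 1.53 in the clusters of chromosome 13. Among solitary loci, those called by 2 or more Pol III lists overlapped Pol II in 36 of 53 cases (67.9%, 53.7 to 80.1%) and those called by 1 list in 15 of 37 (40.5%, 24.8 to 57.9%). The share was thus higher among the solitary loci called by 2 or more lists, though the intervals overlap. Solitary loci had a lower median POLR3C score than those of the chromosome 13 clusters, at 793 against 1794. Single-list loci, most of them of low POLR3C score, made up 37 of the 90 solitary loci but 4 of the 95 in those clusters. Clustered loci are not independent of each other, and the 95 on chromosome 13 lie in only 3 places.

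On chromosome 13, 39 of the 95 clustered loci lay at 2000 to 10000 bp (41.1%, 31.1 to 51.6%) and 37 beyond (38.9%). In the other clusters 13 of 48 loci lay at 2000 to 10000 bp (27.1%, 15.3 to 41.8%), and these intervals overlap. Positions within 50 kb of all 328 loci, solitary ones included, gave 29.7% for this bin. No such value was worked out for the clusters alone, so their shares have no matched background here. The cluster chr13:23362231-23622399 had 6 of 37 loci in Pol II and 20 at 2000 to 10000 bp, with 13 Pol II peaks along it. The cluster chr13:21802426-22142660 held 38 Pol II peaks, and 7 of its 33 loci overlapped one. In chr13:21252623-21418704, with 7 Pol II peaks, 1 of 25 loci overlapped Pol II and 17 lay over 10000 bp away. Among the smaller clusters, chr11:68850441-68938868 had 6 of 15 loci in Pol II, chr3:96125868-96305554 had 1 of 16, chr6:128710034-128793420 had 2 of 9 and chr17:23670950-23687331 had 1 of 8. Outside chromosome 13, 41.4% of loci lay in Pol II. Counts reached 10 of 14 on chromosome 7 (41.9 to 91.6%) and 8 of 11 on chromosome 10 (39.0 to 94.0%). They were 5 of 27 on chromosome 3 (6.30 to 38.1%), 4 of 16 on chromosome 9 (7.27 to 52.4%) and 3 of 11 on chromosome 4 (6.02 to 61.0%). These chromosomes were picked for their counts, and only the intervals of chromosomes 3 and 7 leave out 41.4%. Chromosome 15 had 0 of 2, which allows a share of up to 84.2% (Clopper-Pearson).

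The same 328 loci were also binned by distance to the MEF Pol II list, which is shorter (12962 autosomal peaks). Its peaks cover 0.765% of autosomal bases against 1.86% for ES Pol II, so that shares in the lists have unlike backgrounds. Around the MEF list, 96 loci overlapped Pol II (29.3%, 24.4 to 34.5%), 20 lay 1 to 500 bp away, 14 at 500 to 2000 bp, 64 at 2000 to 10000 bp and 134 beyond (40.9%). The bin was the same in both cell types for 179 loci (54.6%, 49.0 to 60.1%). Of the 110 loci in ES Pol II, 61 were also in MEF Pol II (55.5%, 45.7 to 64.9%), and 30 lay over 10000 bp from it. Conversely, 23 of the 106 loci far from ES Pol II overlapped MEF Pol II. Single-list loci made up 11 of these 30 and 10 of these 23, but only 1 of the 61 in Pol II of both cell types, against 18.6% of all 328 loci. These counts restate the Pol III calls of MEFs, which single-list loci lack by definition. Those 10 include both loci of the chromosome 2 pair and 5 of the chromosome 9 run described above. The 61 loci in Pol II of both cell types had a median POLR3C percentile of 64.0, against 37.3 and 35.9 in the discordant groups.

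Some discordant loci had high Pol III scores in ES cells and a Pol III call in MEFs. For example, chr5:125886322-125886535 overlapped an ES Pol II peak of score 251.09 and lay 15093 bp from MEF Pol II, and chr11:68938655-68938868, 13988 bp from ES Pol II, overlapped a MEF peak. Both were called by POLR3C and POLR3GL in MEFs. MEF lists held a POLR3C or POLR3GL peak at 93 of 110 overlapping loci (84.5%, 76.4 to 90.7%), 16 of 19, 15 of 19 and 65 of 74 (87.8%, 78.2 to 94.3%). The share was 77 of 106 (72.6%, 63.1 to 80.9%) beyond 10000 bp. Over all loci it was 266 of 328 (81.1%, 76.4 to 85.2%), close to the share at overlap. The loci without such a call are nearly all the single-list loci described above.

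**Figure D5:**
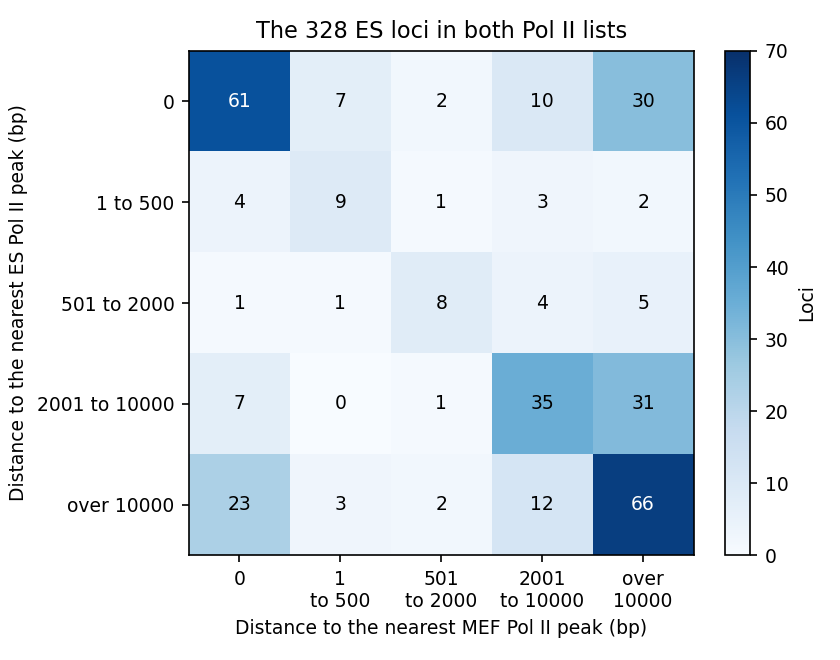
Number of the 328 ES loci by distance to the nearest ES Pol II peak (rows) and to the nearest MEF Pol II peak (columns), in bp, with darker blue for more loci. The largest cells are overlap in both lists (61 loci) and over 10000 bp in both (66 loci).

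The ES Pol II peaks that hold a Pol III locus were also more often matched in MEFs than other Pol II peaks. Of the 98 peaks, 61 overlapped a MEF Pol II peak (62.2%, 51.9 to 71.8%), against 26.9% of all 31667 autosomal Pol II peaks of ES cells. Within each score quartile the share of peaks with a locus was the higher one. It was 4 of 9 (44.4%, 13.7 to 78.8%) against 9.68% of all peaks in the lowest quartile, 13 of 27 (48.1%, 28.7 to 68.1%) against 16.1% in the second, 19 of 26 (73.1%, 52.2 to 88.4%) against 30.0% in the third and 25 of 36 (69.4%, 51.9 to 83.7%) against 51.7% in the highest. Peak width was not matched here.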

How the data were processed

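ChIP-seq peak lists of 6 libraries were used (POLR3C, POLR3GL and Pol II in ES cells and in MEFs, 1 library each). The POLR3G lists and the input libraries were not used here. Per the submitters' processing notes, reads were handled with CASAVA 1.8, Bowtie, SAMtools and HOMER on build mm9. The sources used here give no calling threshold, control or pooling. The deposited score of each peak is the authors' own, with no stated scale, and was used for ranks within a list only. Pol II peaks carry MACS peak names in the deposited lists.

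Starts were read as 0-based and are printed 1-based. A distance of 0 means at least 1 shared bp. A locus takes the score of its peak in each list. Backgrounds were computed from peak positions over all autosomal placements, without random draws. Named loci are, per bin, the 3 with the highest POLR3C score, the 3 with the highest POLR3GL score in the first and the last bin, those with the highest-scored or widest Pol II peak, the 3 farthest loci, Pol II peaks with 3 or more loci, and the loci at bin edges. Loci in other sentences (clusters, pairs in 1 peak, single-list loci) were chosen after their values were seen. The rule, the bins and the lists were chosen with earlier results of these data known. Alternatives were higher-scored or narrower Pol II peaks, higher-scored Pol III peaks, a single subunit or both, centre distances, joining at 500 bp, 1 locus per run, each Pol II peak once, equal Pol II list lengths, and loci with or without certain chromosomes. The locus kept per run was the one with the highest POLR3C score. Leaving out replicates was not possible with 1 library per antibody. Merging, distances and backgrounds were tested on simulated intervals (21 of 21 checks passed). Python 3.11.15 with numpy 2.4.6, pandas 2.3.3, scipy 1.17.1 and matplotlib 3.10.9 was used.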

Additional observations from a re-analysis of the deposited data

How the results depend on the processing

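For 12 main values (the 5 bin shares, the medians at overlap, the Pol III medians beyond 10000 bp and the share also in MEF Pol II), 130 of 143 alternatives stayed within the 95% interval of the reported value. Some alternatives keep nearly the same loci and repeat a value, as the POLR3C medians do with only POLR3C peaks. The count is therefore not a measure of stability. The share of loci in Pol II was 22.3% with Pol II peaks at or above the median score, 27.1% with Pol II peaks of at most 2000 bp, 41.4% without chromosome 13 and 56.5% with 1 locus per run (124 loci), against 33.5%. With 1 locus per run the shares at 500 to 2000 bp, 2000 to 10000 bp and beyond were 2.42%, 12.9% and 22.6%, and without chromosome 13 that at 2000 to 10000 bp was 15.1%. With the higher-scored Pol II peaks, 47.0% lay beyond 10000 bp. The median POLR3GL percentile beyond 10000 bp was 58.8 with Pol III peaks at or above the median score (24 loci) and 25.3 with 1 locus per run (12 loci). The share of overlapping loci also in MEF Pol II was 64.9% for loci with both subunits and 67.2% for the higher-scored Pol III peaks. The median Pol II score percentile at overlap ranged from 59.3 to 69.0 over all settings and the width percentile from 54.5 to 68.6. The restriction to loci called by 2 or more lists was added after seeing the data. Fewer loci or Pol II peaks enter these alternatives by construction, and other causes were not tested. Depth is unknown, so that a missing peak does not show absence of a polymerase.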

Other observations

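The POLR3C scores of ES cells had a coarse grain. Of the 317 deposited scores, 314 (99.1%) were whole multiples of 13, and the lowest score, 260, is 20 such steps. Only 153 distinct values occur, while the 243 POLR3GL scores showed no such step (17 multiples of 13) and took 42 distinct values. No source used here says what a step stands for.

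The Pol II score has a shared value near its top. Of the 31667 autosomal peaks, 362 scored exactly 3100 and 24 scored higher. A peak at 3100 was the nearest to 8 of the 328 loci and overlapped 1 of them.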
